A study of Mus musculus with 8 samples.

Results

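The 10 genes described here belong to the p53 pathway: *Trp53*, *Mdm2*, *Mdm4*, *Cdkn2a*, *Cdkn1a*, *Ccng1*, *Bax*, *Bbc3*, *Sesn1* and *Sat1*. They were chosen by name, and every peak that the deposited H3K4me3 table assigns to one of them was taken. This gave 17 of the 35486 listed peaks. All 10 genes had at least 1 peak, among 20871 genes in the table: 5 genes had 1 peak, 3 genes had 2 peaks and 2 genes had 3 peaks. Of the 17 peaks, 11 lay within 1 kb of a transcription start site and 6 lay farther away.

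H3K4me3, trimethylation of lysine 4 of histone H3, marks the promoters of genes that are active or ready to be transcribed. It was measured by CUT&Tag, in which an antibody to the mark directs an enzyme that cuts the DNA beside it. Sequencing reads therefore gather where the mark lies. KL is a mouse model of lung cancer that carries Lkb1fl/fl, so that the intranasal Ad-Cre virus deleted Lkb1 (*Stk11*) in infected lung cells. KLG4m/m mice carried the alleles of KL and Gpx4m/m, an allele that expresses the DreERT2 recombinase from a CAG promoter once Cre has acted and loses rox-flanked exons of *Gpx4* after tamoxifen. Both groups received Ad-Cre and tamoxifen and were analysed 10 weeks after Ad-Cre. No allele of *Trp53* or of another member was engineered in either genotype. Tumor cells were sorted as CD45-CD31-EpCAM+, and 2 KL mice (replicates 1 and 2) and 2 KLG4m/m mice (replicates 3 and 4) gave 1 library each. The protocol text of the labels gives another number of mice in total than these 4 libraries. Sex and age at infection are not given in the labels, and the virus is named only as Ad-Cre.

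The libraries held 3244495 to 3463731 reads in the listed peaks. All log2 fold changes are KLG4m/m over KL, levels are counts per 1000000 reads in peaks (CPM), and a difference is called where edgeR's quasi-likelihood test gave a p under 0.05 after Benjamini-Hochberg adjustment over all peaks or all genes. An exact permutation test of 2 against 2 libraries cannot give a two-sided p below 0.333, so the calls rest on the spread that edgeR shares between peaks. Leaving out either KLG4m/m library left no call at any peak or gene of the whole table, the members' included. The groups also differed in some markers of cell types. Summed over 6 epithelial markers the level was 293 and 291 CPM in KL and 241 and 249 CPM in KLG4m/m. *Epcam* (log2 fold change -0.82, adjusted p = 1.56e-06) and *Cdh1* (-0.38, adjusted p = 0.00396) were called lower. *Krt8* (-0.28) and *Nkx2-1* (-0.13) were lower without a call, and *Krt18* (0.07) and *Krt19* (0.11) went the other way, also without a call. Of 8 leukocyte markers 6 had a peak, with a sum of 213 and 216 CPM in KL and 285 and 270.2 CPM in KLG4m/m, and *Itgam*, *Ms4a1* and *Coro1a* were called higher. *Cd79a* and *Laptm5* had no listed peak. Of 4 endothelial markers 1 (*Tek*) was called lower, and *Pecam1* alone lay above 0 (0.19, not called). Their sum was 128 and 152 CPM in KL and 123 and 142 CPM in KLG4m/m. Of 5 fibroblast markers 1 (*Pdgfrb*) was called higher, and *Col1a2* and *Dcn* had no listed peak. *Pdgfra* lay below 0 (-0.08, not called). The fibroblast sum was 64.6 and 71.7 CPM in KL and 69.5 and 72.8 CPM in KLG4m/m. Both of these sums overlapped between the groups. Over all genes 5.38% were called higher and 9.63% lower. The part of these differences in the results for the members was not tested. In bulk libraries, fewer cells that carry the mark and less of the mark per cell cannot be told apart.

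The p53 protein, encoded by *Trp53*, is a transcription factor that is stabilised by DNA damage and by oncogene activity and then switches on genes for cell cycle arrest, cell death, DNA repair and metabolism. MDM2 and MDM4 hold p53 in check, and the *Cdkn2a* product Arf frees p53 from MDM2. In lung tumors the pathway is known as a barrier to progression, and some p53 targets, *Sat1* among them, are known to influence ferroptosis, the lipid peroxidation death that GPX4 prevents.

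The promoters of these genes differ in sequence. RefSeq (build GRCm38.p6) held 16 promoter windows for the 10 members, each running from 250 bases before a start to 50 bases after it. The peak table does not use GRCm38: 0 of its 13 member start sites lay within 100 bp of a GRCm38.p6 start. The windows are therefore shown for their sequence and not for their overlap with a peak. The 2 windows of *Cdkn2a* are shown because this locus holds the only called peak among the members. They belong to separate first exons, one for Arf and one for p16Ink4a, and capitals mark CG dinucleotides, the sites of CpG methylation.
*Cdkn2a*, Arf start, chr4:89294570-89294869, minus strand: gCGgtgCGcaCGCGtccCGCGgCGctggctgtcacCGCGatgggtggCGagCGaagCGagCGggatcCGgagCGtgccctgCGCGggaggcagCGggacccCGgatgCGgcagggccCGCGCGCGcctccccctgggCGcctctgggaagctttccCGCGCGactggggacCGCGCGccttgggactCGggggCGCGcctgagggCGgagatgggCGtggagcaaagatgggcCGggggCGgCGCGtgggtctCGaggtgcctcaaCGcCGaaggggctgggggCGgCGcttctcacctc
*Cdkn2a*, p16Ink4a start, chr4:89282143-89282442, minus strand: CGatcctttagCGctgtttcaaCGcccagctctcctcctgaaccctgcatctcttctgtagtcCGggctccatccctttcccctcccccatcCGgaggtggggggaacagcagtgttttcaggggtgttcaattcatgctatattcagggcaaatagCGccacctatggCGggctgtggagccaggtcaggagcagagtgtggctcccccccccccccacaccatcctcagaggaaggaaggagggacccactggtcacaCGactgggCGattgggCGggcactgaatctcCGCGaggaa

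The Arf window held 45 CG dinucleotides, the most of the 16 member windows, and the p16Ink4a window held 12. The median over all 32851 promoter windows was 7.

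The windows of *Trp53*, *Mdm2*, *Cdkn1a* and *Bax* are shown because they hold a match to the p53 half-site, the 10-base unit of which p53 response elements are built. Capitals mark the match. The half-site consensus reads the same on both strands, and matches to it were searched without mismatches.
*Trp53*, chr11:69580109-69580408, plus strand: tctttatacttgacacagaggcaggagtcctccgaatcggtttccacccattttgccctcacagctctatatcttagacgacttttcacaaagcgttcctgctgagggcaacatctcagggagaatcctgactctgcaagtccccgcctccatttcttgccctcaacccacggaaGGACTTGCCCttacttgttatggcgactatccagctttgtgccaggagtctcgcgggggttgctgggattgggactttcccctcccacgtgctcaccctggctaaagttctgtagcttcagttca
*Mdm2*, chr10:117710709-117711008, minus strand: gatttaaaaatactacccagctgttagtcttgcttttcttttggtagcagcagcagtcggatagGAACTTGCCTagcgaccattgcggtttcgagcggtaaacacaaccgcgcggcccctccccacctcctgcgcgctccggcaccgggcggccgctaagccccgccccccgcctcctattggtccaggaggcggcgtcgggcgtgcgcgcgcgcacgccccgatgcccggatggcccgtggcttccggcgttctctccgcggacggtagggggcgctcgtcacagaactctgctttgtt
*Cdkn1a*, upstream start, chr17:29090729-29091028, plus strand: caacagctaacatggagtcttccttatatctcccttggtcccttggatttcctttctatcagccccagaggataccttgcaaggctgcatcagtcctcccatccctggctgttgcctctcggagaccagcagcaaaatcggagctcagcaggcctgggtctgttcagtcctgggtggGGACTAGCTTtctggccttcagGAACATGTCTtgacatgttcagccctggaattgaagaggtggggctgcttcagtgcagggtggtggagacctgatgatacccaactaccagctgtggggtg
*Bax*, chr7:45466849-45467148, minus strand: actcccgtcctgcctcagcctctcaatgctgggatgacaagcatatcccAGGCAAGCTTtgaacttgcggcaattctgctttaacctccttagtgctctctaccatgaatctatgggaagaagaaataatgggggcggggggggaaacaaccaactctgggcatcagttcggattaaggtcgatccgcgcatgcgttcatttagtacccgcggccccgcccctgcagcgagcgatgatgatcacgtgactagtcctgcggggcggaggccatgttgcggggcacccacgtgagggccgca

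The match began at position -75 from the start in *Trp53*, -186 in *Mdm2* and -201 in *Bax*, and the upstream start of *Cdkn1a* had 2 matches close together. That *Cdkn1a* window also held 2 CG dinucleotides, the fewest of the 16. A half-site match was present in 6 of the 16 member windows, the other two being those of *Ccng1* and of 1 start of *Sesn1*, and in 8.356% of all windows. Several windows come from the same gene and some of *Bbc3* overlap, so the 16 are not independent. A match to a half-site does not by itself show a response element, and binding of p53 was not tested. The GC box GGGCGG was found on either strand in 11 of 16 member windows (35.66% of all windows), CCAAT in 7 (37.41%) and TATAAA in 1 (13.62%).

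At their promoters, 10 of the 11 member peaks carried H3K4me3 at a middle or high level for a promoter. The remaining 1, at the p16Ink4a start of *Cdkn2a*, carried little. All peaks compared are 400 bp long, so their levels can be set side by side. The median over all 17073 peaks within 1 kb of a start was 41.2 CPM, with quartiles of 15.3 and 68.8 CPM. *Ccng1* was the strongest member, with a mean of 102.9 CPM over the 4 libraries, above 94.9% of such peaks. *Trp53* (91.6 CPM), *Mdm4* (82.3 CPM), *Cdkn1a* (78.4 CPM) and the later of the *Bbc3* starts with a promoter peak (75.3 CPM) followed. *Bax* (71.7 CPM), the earlier of these *Bbc3* starts (63.4 CPM), *Sesn1* (54.7 CPM), *Sat1* (44.98 CPM) and *Mdm2* (39.8 CPM) came next. From *Ccng1* down to *Mdm2*, each peak overlapped the next over the range of its 4 libraries. *Cdkn2a*, at 9.90 CPM, lay above 17.2% of such peaks, and its highest library (10.9 CPM) was below the lowest of *Mdm2* (37.2 CPM). This value is for the p16Ink4a start only, since no member peak gives a level for the Arf promoter.

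**Figure D1:**
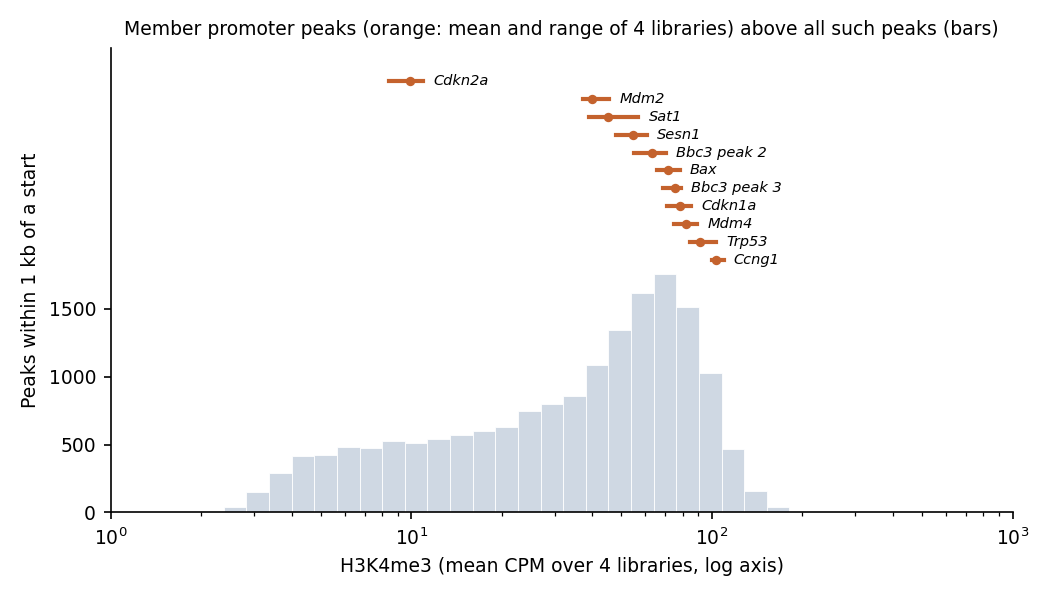
H3K4me3 at the 11 member peaks within 1 kb of a start (orange, mean and range over 4 libraries, CPM on a log axis) above the distribution of all 17073 such peaks (bars, number of peaks). The members lie between 39.8 and 102.9 CPM except *Cdkn2a*, at its p16Ink4a start, at 9.90 CPM. *Bbc3* peak 2 is at the earlier of the *Bbc3* starts with a promoter peak, and peak 3 is at the later.

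Between the groups, 1 of the 17 member peaks was called, a peak downstream of *Cdkn2a* that was lower in KLG4m/m. Over all peaks 8.62% were called, 3.1% higher and 5.52% lower. Within 1 kb of a start 0 of 11 member peaks were called, against 11.3% of such peaks in the table (2.89% higher, 8.43% lower), and beyond 1 kb 1 of 6, against 6.11% (3.29% higher, 2.82% lower). The 2 libraries of KLG4m/m lay above both KL libraries at 4 member peaks and below both at 5, while the groups overlapped at 8. Over all peaks the groups did not overlap at 54.2%, with KLG4m/m higher at 27.5% and lower at 26.6%. At an unadjusted p under 0.05 there were 5 of 17 member peaks, 2 higher and 3 lower, against 24.6% of all peaks. DESeq2 called 0 member peaks and 33 higher and 250 lower peaks in the whole table. Across the 17 peaks the log2 fold change had a median of 0.00026, and across all peaks of 0.01. The plots of levels by library and of log2 fold changes show every member peak.

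**Figure D2:**
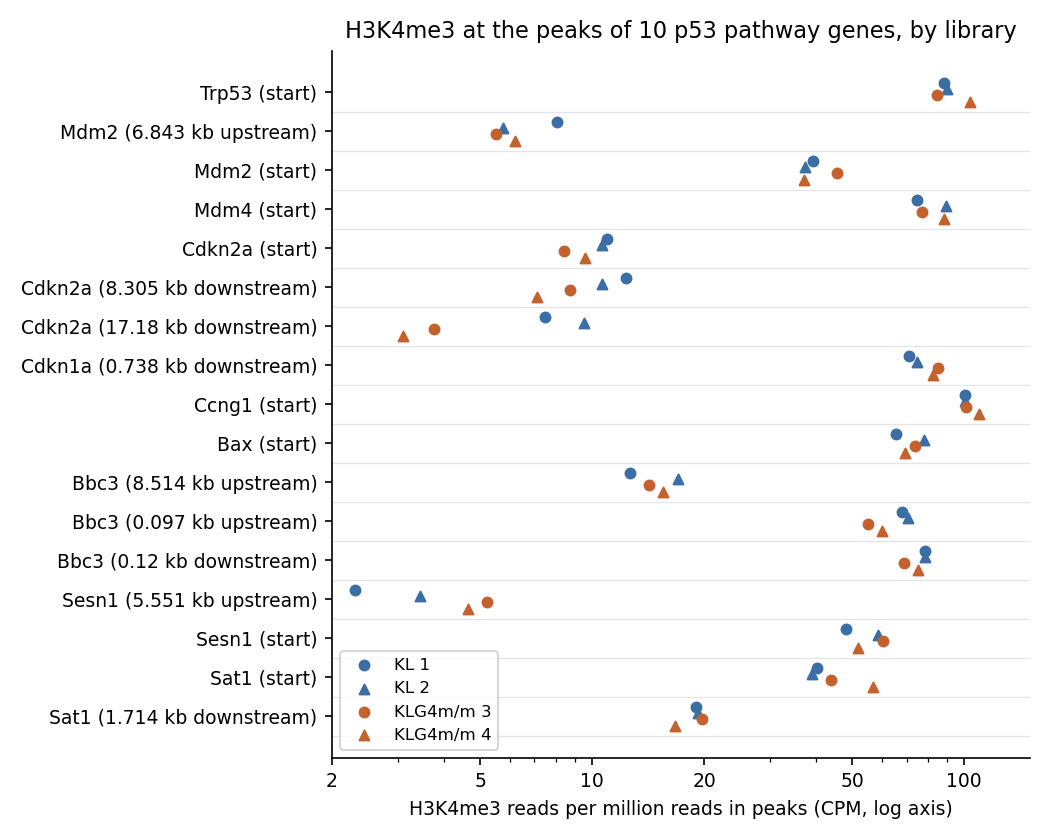
H3K4me3 (CPM, log axis) at each of the 17 member peaks in each library, with KL in blue and KLG4m/m in orange, and circles and triangles for the 2 libraries of a group. The labels give the gene and the distance of the peak from the listed start. At the *Cdkn2a* peak 17.2 kb downstream KL lies at 7.48 and 9.51 CPM and KLG4m/m at 3.77 and 3.10 CPM.

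**Figure D3:**
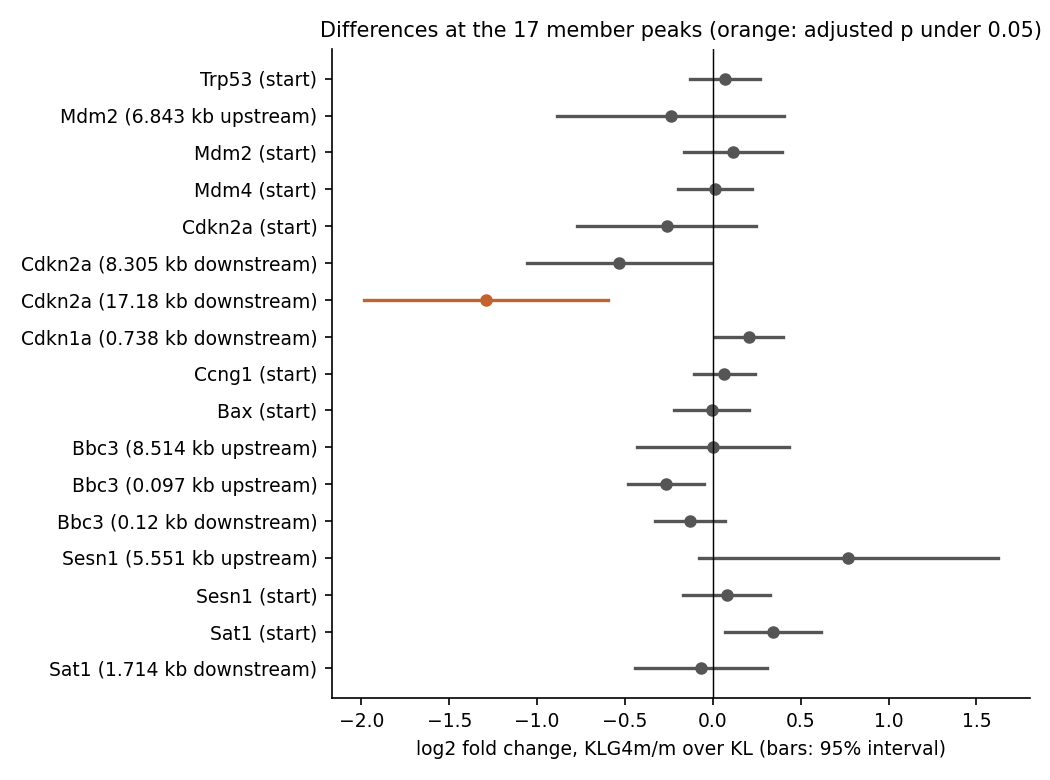
Log2 fold change of H3K4me3 (KLG4m/m over KL) with its 95% confidence interval at each member peak. Orange marks the only called peak, with a log2 fold change of -1.29, and 15 of the other peaks lie between -0.54 and 0.34, with *Sesn1* 5.55 kb upstream at 0.77.

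*Trp53*, which encodes the factor itself, had 1 peak, over its start (chr11:69470942-69471342, positions as in the table). It held 307 and 313 reads in KL and 291 and 334 reads in KLG4m/m. The groups overlapped, at 89.2 ± 1.30 CPM for KL and 93.9 ± 13.5 CPM for KLG4m/m (SD, n = 2). The log2 fold change was 0.07 (95% confidence interval -0.13 to 0.27, adjusted p = 0.702), and the sign of this small difference changed to -0.08 without KLG4m/m replicate 4.

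The inhibitors of p53 showed no called difference. MDM2 is a ubiquitin ligase that marks p53 for degradation and is itself encoded by a p53 target. The *Mdm2* promoter peak (chr10:117545801-117546201) held 136 and 130 reads in KL and 157 and 120 reads in KLG4m/m, so that the KL values lay between those of KLG4m/m. Its log2 fold change was 0.11 (interval -0.16 to 0.39, adjusted p = 0.643). A weak second peak 6.84 kb upstream, annotated as distal intergenic, held 28 and 20 reads in KL and 19 and 20 in KLG4m/m. MDM4, a relative of MDM2 that binds p53 and blocks its activity, had 1 promoter peak. The peak had 259 and 310 reads for KL and 266 and 285 for KLG4m/m. The KL libraries enclosed the KLG4m/m libraries here, and the log2 fold change was 0.01 (interval -0.20 to 0.22, adjusted p = 0.960).

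*Cdkn2a* was the member with a called difference. The gene encodes p16Ink4a, which blocks the cyclin D kinases upstream of the retinoblastoma protein, and, from a start farther upstream, Arf, which sequesters MDM2. The table assigns 3 peaks to it, on the minus strand of chromosome 4, and all 3 were lower in both KLG4m/m libraries than in either KL library. The promoter peak at the p16Ink4a start (chr4:89200298-89200698) held 38 and 37 reads in KL and 29 and 31 in KLG4m/m, or 10.8 ± 0.194 CPM (SD, n = 2) and 9.004 ± 0.840 CPM. Its log2 fold change of -0.26 (interval -0.77 to 0.24, adjusted p = 0.545) was not called.

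The second *Cdkn2a* peak, distal intergenic and 8.305 kb downstream of the start, held 43 and 37 reads in KL and 30 and 23 in KLG4m/m (log2 fold change -0.54, unadjusted p = 0.0443, adjusted p = 0.190). The third, distal intergenic and 17.2 kb downstream (chr4:89182851-89183251), held 26 and 33 reads in KL and 13 and 10 in KLG4m/m. It fell from 8.49 ± 1.43 CPM to 3.43 ± 0.476 CPM, a log2 fold change of -1.29 (SE 0.338, interval -1.99 to -0.60, adjusted p = 0.0159). Of the 18413 listed peaks beyond 1 kb of a start 2.82% were called lower, and of the 14940 peaks with a mean under 10 CPM 3.42%. This peak rests on few reads. The call was lost without KL replicate 2 (log2 fold change -1.11), without KLG4m/m replicate 3 (-1.45) and without KLG4m/m replicate 4 (-1.16). DESeq2 gave it no adjusted p, and a filter at a mean of 10 CPM left it out. The other alternative fits to all 4 libraries gave it adjusted p from 0.00432 to 0.0192.

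The peaks of 1 gene were also compared with each other, with each peak set against the remaining peaks of its gene in edgeR's test for differential usage. None of the 12 member peaks in genes with several peaks departed from its gene at an adjusted p under 0.05 (1.29% of the 22232 peaks tested did), and 1 did at an unadjusted p under 0.05 (11.6% of the peaks tested). That 1 was the third *Cdkn2a* peak (unadjusted p = 0.0474, adjusted p = 0.423). The larger fall 17.2 kb downstream was therefore not shown to differ from that of the gene's remaining peaks together. It was not tested against the promoter peak alone.

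Around *Cdkn2a*, the neighbouring promoters held more of the mark, and these neighbours were chosen after their values were seen. The *Cdkn2b* promoter peak, 28.8 kb upstream of the listed *Cdkn2a* start, held 194 and 202 reads in KL and 178 and 189 in KLG4m/m (log2 fold change -0.05, adjusted p = 0.817). *Cdkn2b* encodes p15Ink4b, a close relative of p16Ink4a. A peak assigned to the noncoding gene *Gm12610* held 128 and 135 reads in KL and 142 and 120 in KLG4m/m (0.05, adjusted p = 0.851). Its edges lay 13.2 and 13.6 kb upstream of the listed *Cdkn2a* start, and in GRCm38.p6 the Arf start lies 12.43 kb upstream of the p16Ink4a start. No peak between these promoters was assigned to *Cdkn2a*, so the member peaks hold no separate value for the Arf promoter. Farther downstream, the *Mtap* promoter peak held 280 and 295 reads in KL and 329 and 335 in KLG4m/m (0.27, adjusted p = 0.0664). Of the 12 peaks listed within 200 kb of the *Cdkn2a* start, 1 other was called, a weak intronic peak assigned to *Gm12608*, at 31 and 30 reads for KL and 7 and 15 for KLG4m/m (-1.40, adjusted p = 0.0128).

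**Figure D4:**
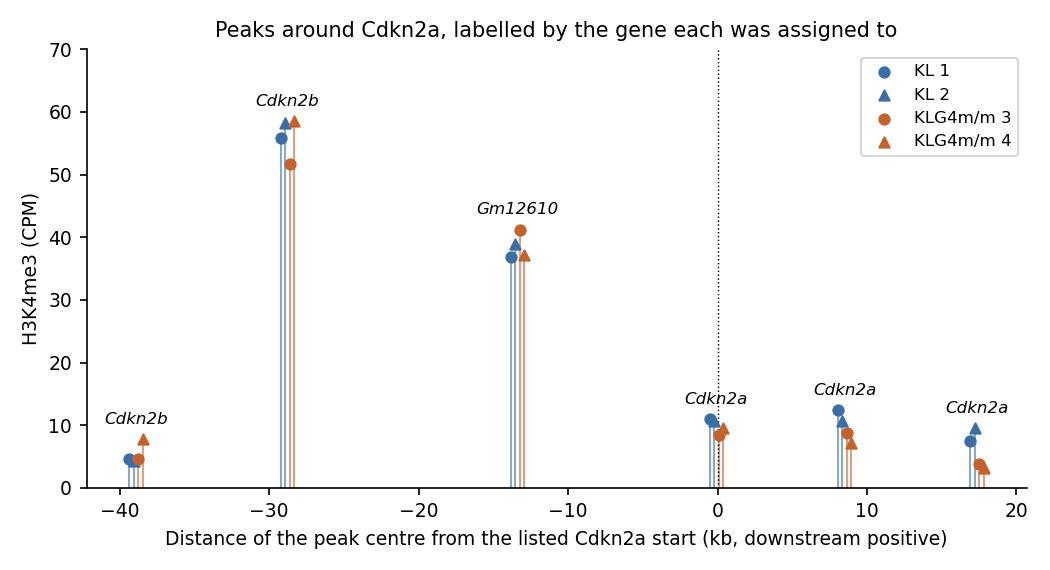
H3K4me3 (CPM) in each library at the peaks around *Cdkn2a*, by distance of the peak centre from the listed start (kb, downstream positive), with KL in blue and KLG4m/m in orange. The 3 *Cdkn2a* peaks lie at 12.4 CPM or less, below the *Gm12610* and *Cdkn2b* promoter peaks, and among the plotted peaks only those of *Cdkn2a* have both KLG4m/m libraries below both KL libraries.

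The arrest targets *Cdkn1a* and *Ccng1* were among the strongest member promoters. *Cdkn1a* encodes p21, the cyclin-dependent kinase inhibitor through which p53 stops the cell cycle. Its only peak lay 738 bp downstream of the listed start (chr17:29313481-29313881) and held 247 and 259 reads in KL and 294 and 267 in KLG4m/m. Both KLG4m/m libraries were above both KL libraries, at 72.8 ± 2.51 CPM for KL and 84.0 ± 1.83 CPM for KLG4m/m (SD, n = 2). The log2 fold change of 0.21 (interval 0.01 to 0.40, unadjusted p = 0.0382) did not pass after adjustment (adjusted p = 0.175). *Ccng1*, a p53 target that encodes cyclin G1, held 350 and 348 reads in KL and 349 and 353 in KLG4m/m. The 4 libraries were close, and the log2 fold change was 0.07 (interval -0.11 to 0.24, adjusted p = 0.680).

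The death targets *Bax* and *Bbc3* had no called peak. BAX forms pores in the outer mitochondrial membrane during apoptosis. Its promoter peak held 228 and 271 reads in KL and 254 and 224 in KLG4m/m, and the log2 fold change was -0.01 (interval -0.22 to 0.21, adjusted p = 0.985). *Bbc3* encodes PUMA, a BH3-only protein that frees BAX from the BCL2 family. It had 3 peaks, 2 of them near separate starts. At the first (chr7:16043046-16043446) KL held 236 and 245 reads and KLG4m/m 190 and 194. Both KLG4m/m libraries were lower there, at 69.2 ± 1.89 CPM for KL and 57.6 ± 3.51 CPM for KLG4m/m (SD, n = 2), and the log2 fold change of -0.27 (unadjusted p = 0.0165) had an adjusted p of 0.110. At the second (chr7:16046959-16047359) KL held 273 and 273 reads and KLG4m/m 237 and 243, with a log2 fold change of -0.13 (adjusted p = 0.440). The remaining *Bbc3* peak was distal intergenic and lay 8.51 kb upstream of a listed start that precedes these 2. It held 44 and 59 reads in KL and 49 and 50 in KLG4m/m.

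The metabolic targets were *Sesn1* and *Sat1*. Sestrin 1 restrains mTORC1 signaling and takes part in the defence against oxidants. The *Sesn1* promoter peak held 167 and 203 reads in KL and 209 and 167 in KLG4m/m (log2 fold change 0.08, interval -0.17 to 0.33, adjusted p = 0.732), and the libraries of each group spread over the same range. An intronic peak 5.55 kb upstream of the listed start was the weakest member peak, at 8 and 12 reads for KL and 18 and 15 for KLG4m/m. Its log2 fold change was 0.77 with an interval of -0.08 to 1.62 (adjusted p = 0.248). *Sat1* encodes the acetyltransferase that starts the breakdown of spermidine and spermine. Its promoter peak (chrX:153999177-153999577) held 140 and 135 reads in KL and 151 and 184 in KLG4m/m, or 39.6 ± 0.983 CPM (SD, n = 2) and 50.4 ± 9.32 CPM. Both KLG4m/m libraries were above both KL libraries, but far apart from each other, and the log2 fold change of 0.34 (interval 0.07 to 0.62, unadjusted p = 0.0161) had an adjusted p of 0.108. At the second *Sat1* peak, 1.71 kb downstream, KL held 66 and 67 reads and KLG4m/m 68 and 54.

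When reads were added up over the peaks of each gene, *Cdkn2a* was the only one of the 10 genes called. Over all genes 15% were called, 5.38% higher and 9.63% lower. *Cdkn2a* held 107 and 107 reads in KL and 72 and 64 in KLG4m/m, or 30.8 ± 0.0352 CPM (SD, n = 2) and 20.3 ± 0.837 CPM. It fell by 0.60 on the log2 scale (SE 0.167, adjusted p = 0.00667). With only the peak nearest the start the log2 fold change was -0.26 (adjusted p = 0.547), so the call rested on the 2 intergenic peaks. DESeq2 did not call it (adjusted p = 0.248), nor did the fits without KL replicate 2 (0.0550), without KLG4m/m replicate 3 (0.163) or without KLG4m/m replicate 4 (0.212). *Bbc3* (log2 fold change -0.18, adjusted p = 0.0850), *Cdkn1a* (0.20, adjusted p = 0.149) and *Sat1* (0.22, adjusted p = 0.164) passed only before adjustment, which with *Cdkn2a* makes 4 of 10 genes against 28.8% of all genes. The groups did not overlap at 5 of the 10 genes, 3 higher and 2 lower in KLG4m/m, against 56.7% of all genes (27.9% higher, 28.7% lower). The other 6 genes lay between -0.01 and 0.12. The median of the 10 genes was 0.06 and that of all genes 0.00.

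The scaling changed the calls at 2 members. Centring each library on its median gene moved the median log2 fold change of all genes from 0.00 to 0.09, and the share of higher among called genes from 35.8% to 66.6%. Under it *Cdkn1a* (log2 fold change 0.29, adjusted p = 0.0240) and *Sat1* (0.31, adjusted p = 0.0295) were called higher, *Cdkn2a* stayed called lower, and *Bax* changed sign (0.08).

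The rest of the pathway was described from a list of 90 other p53 regulators, targets and relatives, of which 83 had a listed peak. Of these, 7 were called higher and 4 lower at gene level, against 5.38% higher and 9.63% lower over all genes, and 22 had an unadjusted p under 0.05, against 28.8% of all genes. DESeq2 called 1, *Rb1*. The median log2 fold change of the 83 genes was 0.00, as was that of all genes to 2 decimals. Of 22 regulators with a peak 1 was called higher and 2 lower, of 13 arrest targets 2 and 1, of 17 death targets 2 and 1, of 24 metabolism and repair targets 1 and 0, and of 7 relatives of members 1 and 0. With so few genes per role, these counts are given as a description beside the same shares over all genes. Under median centring 15 of the 83 were called higher and 2 lower, and 2839 higher and 1424 lower of all 20871 genes. The plot by role shows each gene.

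**Figure D5:**
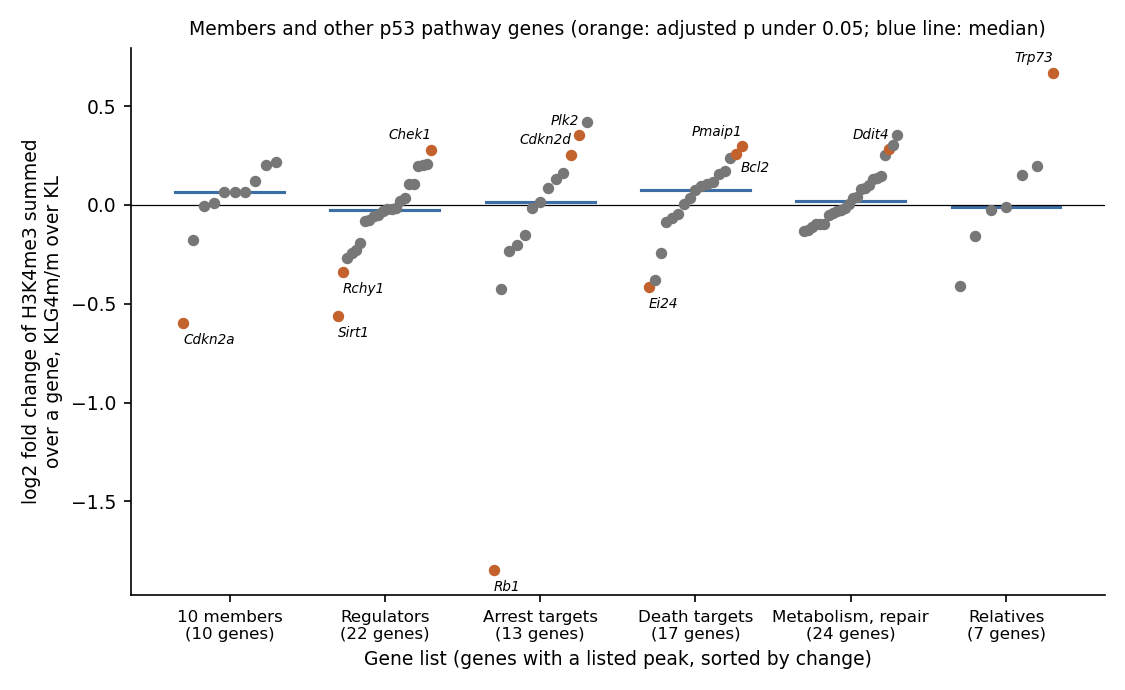
Log2 fold change (KLG4m/m over KL) of H3K4me3 summed over each gene's peaks, for the 10 members and for 83 other p53 pathway genes by role. Orange points are called (adjusted p under 0.05), blue lines are medians, which lie between -0.03 and 0.08, and *Rb1* at -1.85 is the lowest.

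Among the genes called lower, *Rb1* stood farthest from the rest. It encodes the retinoblastoma protein, which p16Ink4a and p21 keep active by inhibiting its kinases. Its only peak, over the promoter, held 62 and 118 reads in KL and 27 and 21 in KLG4m/m, and the log2 fold change was -1.85 (SE 0.234, adjusted p = 4.53e-10). The KL libraries differed from each other, at 17.9 and 34.0 CPM, and both KLG4m/m libraries lay below them, at 7.85 and 6.48 CPM. *Sirt1*, which encodes a p53 deacetylase, fell by 0.56 (156 and 171 reads in KL, 116 and 97 in KLG4m/m, adjusted p = 0.00169). *Rchy1*, whose product is a ubiquitin ligase for p53, fell by 0.34 (adjusted p = 0.0232), a call lost with the peak nearest the start (adjusted p = 0.0901) and with promoter peaks only (0.0804). *Ei24*, a p53-induced gene, fell by 0.42 (adjusted p = 0.0289), and its log2 fold change was -0.68 without KLG4m/m replicate 3 and -0.20 without KLG4m/m replicate 4. *Ei24* has 1 listed peak, so the fit to the peak nearest each start kept the same reads for it (log2 fold change -0.41). Its call was still lost there (adjusted p = 0.0518). Both *Rchy1* and *Ei24* lost their calls under median centring (adjusted p = 0.0950 and 0.0747).

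Among the genes called higher, *Ddit4* had the lowest adjusted p. It encodes REDD1, an inhibitor of mTORC1, and its 6 peaks together held 592 and 583 reads in KL and 738 and 638 in KLG4m/m (log2 fold change 0.28, adjusted p = 0.00102). *Plk2*, a polo-like kinase gene, rose by 0.35 (adjusted p = 0.00629), and its log2 fold change was 0.23 without KLG4m/m replicate 4. *Pmaip1*, which encodes the BH3-only protein NOXA, rose by 0.30 (adjusted p = 0.00853), with 0.17 without KL replicate 1 and 0.45 without KL replicate 2. *Cdkn2d*, which encodes p19Ink4d, a relative of p16Ink4a, rose by 0.25 (adjusted p = 0.0162), and *Bcl2*, which blocks apoptosis, by 0.26 (adjusted p = 0.0219). The *Bcl2* call was lost with only the peak nearest the start (0.12, adjusted p = 0.570) and with promoter peaks only (0.22, adjusted p = 0.0703). *Chek1*, a checkpoint kinase gene named after its value was seen, rose by 0.28 (adjusted p = 0.0324). Of these 6, DESeq2 called none, with adjusted p from 0.0934 (*Ddit4*) to 0.379 (*Chek1*). Without KL replicate 1 the calls at *Ddit4*, *Rb1* and *Sirt1* held and those at the other 8 of the 11 genes were lost, *Trp73* included, with adjusted p from 0.0653 to 0.330. Without KL replicate 2 they held at *Ddit4*, *Plk2*, *Trp73*, *Pmaip1* and *Rb1*, and the other 6 had adjusted p from 0.0627 to 0.170. Without KLG4m/m replicate 3 the 11 genes had adjusted p from 0.147 to 0.224, and without KLG4m/m replicate 4 from 0.190 to 0.441, so that none was called.

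The relatives of the members were read beside them. *Trp73*, which encodes the p53 relative p73, rose by 0.67 over its 3 peaks (47 and 62 reads in KL, 82 and 85 in KLG4m/m, adjusted p = 0.00667). With only the peak nearest its start, 8 and 15 reads in KL and 9 and 14 in KLG4m/m, the log2 fold change was 0.06, and the called peak of the gene was intronic, at 26 and 32 reads for KL and 49 and 51 for KLG4m/m (0.84, adjusted p = 0.0236). *Trp63*, the other relative, had no listed peak. *Bak1*, the pore-forming relative of *Bax*, had a log2 fold change of 0.20 (adjusted p = 0.149). *Sesn2* (0.15), *Sesn3* (-0.16), *Ccng2* (-0.03), *Cdkn2b* (-0.01) and *Sat2* (-0.41, adjusted p = 0.252) were not called either.

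The engineered genes did not check the labels, since their listed peaks lie over promoters that the alleles leave in place. *Gpx4* held 242 and 236 reads in KL and 304 and 301 in KLG4m/m (log2 fold change 0.39, adjusted p = 0.00178), a difference that DESeq2 did not call (adjusted p = 0.127). *Stk11*, floxed in both groups, also rose (0.36, adjusted p = 6.36e-05; DESeq2 adjusted p = 0.0300), though not with only the peak nearest its start (0.19, adjusted p = 0.172).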

How the data were processed

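H3K4me3 CUT&Tag was analysed in sorted lung tumor cells of 2 KL and 2 KLG4m/m mice. The 4 H3K27ac libraries of the series were not analysed here. A further allele that both groups share is not reported here. The protocol text of the labels describes a protein A/G-MNase digestion and names the antibody as anti-H4K4me3, while the samples are titled K4me3. Per the submitters' processing notes and the study's methods, the authors trimmed reads with Trim Galore 0.6.10, mapped them with BWA 0.7.15, removed mitochondrial reads, reads of mapping quality under 30 and duplicates (Picard 2.17.3), called peaks with MACS2 2.2.7.1 and named HOMER 4.11.1 for annotation. The authors deposited whole-number counts of reads per peak and library, without normalization, in 1 table, with a signed distance to the nearest start. The peak set was made once for all libraries, and how it was merged is not given in the sources used here. The study's methods name an Ensembl mouse genome release built on GRCm38, but the start sites in the table do not match GRCm38.p6, so positions are printed as the table holds them, with no build named. The CPM columns of the 4 samples and the authors' own comparison (log2 fold change, average level, F, p and adjusted p) were not used.

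Counts were compared with edgeR 4.0.16 (R 4.3.3; TMM, estimateDisp, glmQLFit, glmQLFTest) with no filter and no covariate, over all 35486 peaks and over 20871 genes with the reads of their peaks summed, two-sided, with Benjamini-Hochberg adjustment and a threshold of 0.05. Peaks of the same gene were compared with diffSpliceDGE over 22232 peaks of 7617 genes. CPM are scaled to reads in peaks, so a change by 1 factor at every peak would not show. Intervals are at 95%. Libraries held 3244495 to 3463731 reads in peaks, with TMM factors from 0.995 to 1.00, and peaks of few reads carry a large counting error. Libraries of a group differed slightly more than sampling noise (chi-square per degree of freedom 1.13 and 1.23). So small a spread cannot show whether the libraries came from separate mice. Each was counted as 1 sample by its label. The alternatives were RLE factors, DESeq2 1.42.0, edgeR's exact test on total reads, limma 3.58.1 on log2(CPM + 1), a mean of at least 10 CPM, median centring, unadjusted p, the peak nearest the start, promoter peaks only and leaving out each library. The tests were also run on simulated data, whose results are not given here. All simulated peaks shared the same dispersion, so that run does not cover peaks whose replicates differ more than others. The members and the lists were chosen with earlier results of these data known. The text names the 10 members, *Gpx4* and *Stk11*, the relatives of members, and up to 6 called genes of the pathway list in each direction by adjusted p; other names are marked as chosen after their values were seen. Promoter sequences are RefSeq GRCm38.p6, and all 10 members matched by symbol.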

Additional observations from a re-analysis of the deposited data

How the results depend on the processing

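The number of member peaks called, 1 as reported, was 0 with DESeq2, 0 of 12 tested with a mean of at least 10 CPM, 5 at an unadjusted p, and 0 to 1 without 1 library. The number of member genes called, 1 as reported, was 0 with DESeq2, 3 under median centring, 0 with the peak nearest the start, 0 with promoter peaks only, 4 at an unadjusted p, and 0 to 1 without 1 library. Of the other p53 pathway genes, 11 as reported, 1 was called with DESeq2, 17 under median centring, 22 at an unadjusted p, and 0 to 5 without 1 library. Member peaks that depart from their gene numbered 1 at an unadjusted p and 0 without any 1 library. In the whole table DESeq2 called 283 peaks and 459 genes against 3059 and 3132 as reported. The cause of these shifts was not tested.

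Log2 fold changes near 0 changed sign. The *Mdm4* peak was at -0.0086 with the filter. *Bax* was at 0.0152 (peak) and 0.0835 (gene) under median centring and at 0.00072 with promoter peaks only. The upstream *Bbc3* peak was at -0.00208 with RLE factors, -0.00123 with DESeq2, -0.00875 with the exact test and -0.0197 with the filter. Under median centring *Cdkn2b* was at 0.0810 and *Ccng2* at 0.0642. Without 1 library, peaks ranged from -0.0781 to 0.209 (*Trp53*), -0.461 to 0.0199 (*Mdm2*, upstream), -0.0468 to 0.252 (*Mdm2*, promoter), -0.113 to 0.148 (*Mdm4*), -0.125 to 0.126 (*Bax*), -0.196 to 0.228 (*Bbc3*, upstream), -0.0553 to 0.228 (*Sesn1*, promoter) and -0.198 to 0.0452 (*Sat1*, downstream). Genes ranged from -0.0788 to 0.206 (*Trp53*), -0.0670 to 0.177 (*Mdm2*), -0.110 to 0.153 (*Mdm4*), -0.122 to 0.131 (*Bax*), -0.0134 to 0.287 (*Sesn1*), -0.126 to 0.102 (*Cdkn2b*) and -0.0577 to 0.0185 (*Ccng2*). None of these was called in any setting run. The adjusted p of *Cdkn2a* at gene level ran from 0.00481 to 0.547 over 12 alternatives and passed in 6 of them.

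No paired analysis was possible because the groups share no replicate number. With 2 libraries per group and 8 to 33 reads per library at the weakest member peaks, small differences were not detectable at this depth.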
